A study of Homo sapiens with 3 samples.

Results

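Mitochondrial ribosomal protein genes were followed in human cells that carried an inducible hairpin against the ubiquitin ligase HRD1. The set was every protein-coding gene whose symbol is MRPL or MRPS followed by a number and at most 1 letter. It held 78 of 58243 annotated genes, of which 19818 are protein-coding, with 49 genes named for the large subunit and 29 named for the small subunit. Cells labelled LoVo, a colorectal carcinoma line, held a Tet-On (doxycycline-inducible) shRNA, a short hairpin RNA that silences its target. The target HRD1 is encoded by SYVN1 and serves degradation of misfolded proteins of the endoplasmic reticulum (ER). They were harvested after 0, 3 or 5 days of doxycycline at 1 µg/ml, to ask how ER stress after loss of HRD1 alters gene expression. All 3 groups carried the hairpin, and neither a line without it nor a non-targeting hairpin was analysed here, so doxycycline, time in culture and the knockdown cannot be told apart. There was 1 library per time, so no ratio had a replicate check and no p-value was computed. A ratio compares libraries, and in bulk RNA fewer cells of a type and less RNA per cell cannot be told apart.

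Mitochondria carry their own ribosome, which translates the few messenger RNAs encoded by mitochondrial DNA, all of them for subunits of the respiratory chain and ATP synthase. Its ribosomal RNAs are transcribed in the organelle, whereas its proteins are encoded in the nucleus, made in the cytosol and imported. Some of these proteins descend from bacterial ribosomal proteins and others were added in the mitochondrial lineage, which gives the particle an unusually protein-rich shell. Nearly all tissues express these genes.

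Reads assigned to genes numbered 21308785 at day 0, 22068686 at day 3 and 25754188 at day 5, and 3 reads correspond to 0.139, 0.140 and 0.114 CPM, the count scaled by the normalised library size. SYVN1 had 1212 reads at day 0, 650 at day 3 and 709 at day 5, with log2 ratios to day 0 of -0.88 [-1.02 to -0.74] and -1.05 [-1.19 to -0.92]. Bounds in square brackets are exact 95% intervals for counting error alone, and a gene is called higher or lower where its interval excludes a ratio of 1. The label of a colonic epithelial line was met only in part. Of 9 epithelial markers, 4 reached 1 TPM, the authors' length-scaled unit, in each library, with KRT8 and KRT18 abundant and a summed level of 1403, 1504 and 1371 TPM. CDX2, which marks intestinal epithelium, had 0 reads in every library, which allows at most the 3 reads given above, and EPCAM had 17, 14 and 19. CDH1, also on the epithelial list, had 3, 2 and 10 reads. Of 6 mesenchymal markers, 4 reached 1 TPM in each library (summed 4127, 4227 and 3696 TPM), nearly all of it from VIM (4016, 4130 and 3588 TPM). Of 6 hepatocyte markers, 1, 1 and 5 reached 1 TPM at day 0, day 3 and day 5, with summed levels of 799, 665 and 723 TPM, nearly all from SERPINA1 (799, 664 and 693 TPM). ALB, FGB, TTR and APOA1 had 0, 0, 0 and 0 reads at day 0, against 114, 122, 101 and 78 at day 5. The blood list of 5 genes had 4, 18 and 88 reads. The part of these transcripts in the day 5 values was not tested.

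All 78 genes were expressed in every library and all passed the minimum mean of 50 reads, as did 12593 genes in all. Together they took 90389 reads at day 0, 102455 at day 3 and 118399 at day 5, or 0.424%, 0.464% and 0.460% of all gene reads. The middle gene stood at 77.6 TPM at day 0, 86.5 TPM at day 3 and 80.1 TPM at day 5. In the large subunit MRPL12, which forms the flexible stalk that recruits translation factors, was the most abundant, with 710, 732 and 706 TPM at day 0, day 3 and day 5. MRPL51 followed with 352, 379 and 433 TPM and MRPL53 with 224, 273 and 220 TPM, both proteins without a bacterial counterpart. In the small subunit the mitochondria-specific proteins MRPS34 and MRPS26 led. MRPS34 had 559, 583 and 542 TPM, and MRPS26 had 513, 597 and 542 TPM, so their order differed between libraries. Far below these, MRPS18B came next with 167, 175 and 174 TPM.

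At the low end stood MRPL42 with 12.2, 9.39 and 12.1 TPM at day 0, day 3 and day 5, MRPL46 with 13.1, 14.8 and 13.5 TPM, and MRPS33 with 13.1, 16.9 and 14.5 TPM. MRPL22 in the large subunit and MRPS14 and MRPS31 in the small subunit came next, between 16.7 and 23.8 TPM. The order of the levels was nearly the same in every library, with rank correlations over the 78 genes of 0.99 between day 3 and day 0, 0.98 between day 5 and day 0, and 0.98 between day 5 and day 3. Points in these correlations share their libraries and their annotated length. Over all genes compared the same correlations were 0.99 for each pair.

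**Figure D1:**
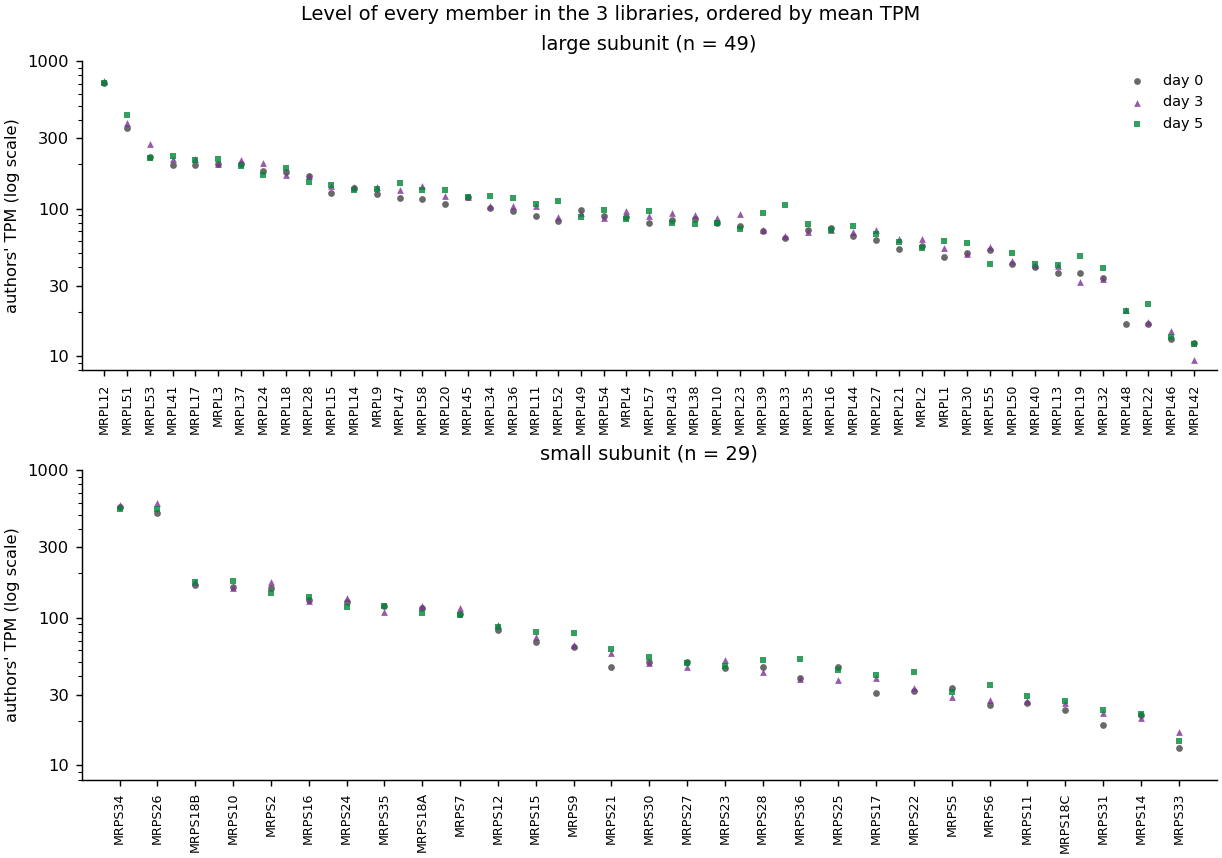
Level of each mitochondrial ribosomal protein gene in TPM (log scale) in the day 0, day 3 and day 5 libraries, with 1 point per library and genes ordered by mean TPM, the 49 large subunit genes above and the 29 small subunit genes below. MRPL12, MRPS34 and MRPS26 stand well above the rest, and the symbols of a gene lie close together compared with the spread between genes.

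Promoter sequence is shown for the genes at the extremes of the ratios described next: MRPS33 and MRPL42, with the highest and the lowest day 3 ratio, and MRPL33 and MRPL55, with the highest and the lowest day 5 ratio. Windows were searched for motifs of NRF1, ETS factors such as GABPA, and YY1, which are regulators of nuclear genes for mitochondrial proteins. Sequences are from RefSeq on GRCh38.p14, read in the direction of the gene, from 250 bases before the listed start to 30 after it. Capitals mark matches, on either strand, to GCGC, any 1 base and TGCGC in a row (NRF1), CCGGAAG (ETS) or AAGATGGC (YY1). MRPS33 (chr7:141014923-141015202, minus strand) held an NRF1 and an ETS match, MRPL42 (chr12:93467264-93467543, plus strand) a YY1 match, MRPL33 (chr2:27771469-27771748, plus strand) an ETS match, and MRPL55 (chr1:228109270-228109549, minus strand) none.
MRPS33: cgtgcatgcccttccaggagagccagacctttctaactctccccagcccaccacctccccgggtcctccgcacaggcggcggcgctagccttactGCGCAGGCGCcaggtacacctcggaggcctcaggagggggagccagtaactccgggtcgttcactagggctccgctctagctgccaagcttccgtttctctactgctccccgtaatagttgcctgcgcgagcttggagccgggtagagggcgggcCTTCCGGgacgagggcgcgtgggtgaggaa
MRPL42: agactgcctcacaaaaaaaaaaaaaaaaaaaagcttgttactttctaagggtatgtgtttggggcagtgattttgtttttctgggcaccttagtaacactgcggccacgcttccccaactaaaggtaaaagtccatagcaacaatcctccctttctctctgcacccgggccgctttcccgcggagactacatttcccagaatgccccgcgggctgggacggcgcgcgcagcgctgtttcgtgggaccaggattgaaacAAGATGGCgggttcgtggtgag
MRPL33: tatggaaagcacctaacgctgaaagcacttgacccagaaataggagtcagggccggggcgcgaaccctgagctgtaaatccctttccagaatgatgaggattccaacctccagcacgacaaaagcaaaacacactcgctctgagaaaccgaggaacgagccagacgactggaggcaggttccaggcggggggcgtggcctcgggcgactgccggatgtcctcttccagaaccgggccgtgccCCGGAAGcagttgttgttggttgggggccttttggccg
MRPL55: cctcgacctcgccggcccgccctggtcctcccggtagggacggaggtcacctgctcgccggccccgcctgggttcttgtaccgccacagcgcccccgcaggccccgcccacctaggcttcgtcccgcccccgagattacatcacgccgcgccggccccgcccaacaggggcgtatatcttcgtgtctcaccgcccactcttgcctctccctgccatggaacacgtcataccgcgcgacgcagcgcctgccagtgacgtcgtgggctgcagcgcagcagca

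Of the 78 genes, 69 had a promoter entry, and the full windows of 300 bases, with 50 after the start, were searched on both strands. A YY1 match stood in 20 of them (29.0%), against 5.78% of 9173 windows of protein-coding genes compared and 3.03% of 27305 windows in the table. An ETS match stood in 29 (42.0%), against 20.5% and 10.7%. An NRF1 match stood in 8 (11.6%), against 12.4% of the protein-coding windows and 6.29% of all windows. Any of the motifs was present in 45 (65.2%), against 33.8% and 17.9%, and in no window of these genes did matches of different motifs overlap. Both subunits held them, with YY1 matches in 12 of 42 large and 8 of 27 small subunit windows, ETS matches in 17 and 12, and NRF1 matches in 6 and 2. Genes with a YY1 match had a median day 3 log2 ratio of 0.19 and those without one 0.20. For ETS the medians were 0.23 and 0.19, and for NRF1 0.21 and 0.19. With smooth trends on exon length and GC content over all genes removed, those for ETS were 0.08 and 0.09. For NRF1 they were then 0.06 and 0.09, and for YY1 both were 0.09. At day 5 the medians with and without a match were 0.12 and 0.13 for YY1, 0.14 and 0.09 for ETS, and 0.20 and 0.11 for NRF1. With trends removed these were 0.04 and 0.10 for YY1, 0.11 and 0.07 for ETS, and 0.14 and 0.09 for NRF1. A match is a description of letters and not a bound site.

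At day 3 transcripts of the mitochondrial ribosome were slightly higher across both subunits, and no gene reached 1.5-fold. Of the 78 genes, 73 were above their day 0 level, against 52% of all genes compared, and 5 below, against 48%. The interval excluded 1 upwards for 57 of the 78, against 25.2% of all genes, and downwards for 3, against 20.8%. The median log2 ratio was 0.20 (quartiles 0.13 and 0.29), against 0.01 over all genes. The summed reads were 1.15-fold higher [1.14 to 1.16], and those of all protein-coding genes compared 1.04-fold. At a log2 ratio of at least 0.32 with an interval excluding 1, 13 of the 78 were higher, against 6.27% of all genes, and 0 were lower, against 8.08%. At 1.5-fold 0 of the 78 were higher, against 1.29% of all genes, and 0 were lower, against 2.53%. With smooth trends on exon length and GC content over all genes removed, the median fell to 0.09, and 63 of the 78 were above 0. The interval then lay above 0 for 36 of the 78, against 22.3% of all genes, and below 0 for 3, against 17.6%.

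In the large subunit, 47 of 49 genes were above day 0 at day 3, 36 of them with an interval excluding 1, and the median log2 ratio was 0.21. MRPL58, a ribosomal protein that kept the activity of a peptidyl-tRNA hydrolase, had 31.5, 42.0 and 36.3 CPM at day 0, day 3 and day 5, with a day 3 log2 ratio of 0.41 [0.27 to 0.56]. MRPL48, a mitochondria-specific protein, had 17.1, 22.8 and 20.8 CPM and a ratio of 0.42 [0.22 to 0.62]. Both were highest at day 3 and lowest at day 0. MRPL23, a bacterial-type protein at the exit of the peptide tunnel, had 55.5, 71.1 and 52.6 CPM and a ratio of 0.36 [0.25 to 0.47]. MRPL21 had 35.4, 45.0 and 39.9 CPM and a ratio of 0.35 [0.21 to 0.49]. MRPL53 had 69.1, 92.6 and 69.2 CPM and a ratio of 0.42 [0.32 to 0.52]; only 1.78% of its reads were uniquely placed. MRPL53 and MRPL23 thus stood out at day 3 alone, with day 5 values at or a little below day 0.

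Only MRPL42 and MRPL19 were lower at day 3 in the large subunit. MRPL42 (chromosome 12, 93467488 to 93516213), a mitochondria-specific protein, had 1089, 887 and 1305 reads, or 50.4, 41.5 and 49.7 CPM. Its day 3 log2 ratio was -0.28 [-0.41 to -0.15], and its day 5 level was back within counting error of day 0. At 16393 bases MRPL42 has the longest annotated exon sequence of the set, and its day 3 ratio was -0.05 with the length and GC trends removed. MRPL19, a bacterial-type protein, had 56.6, 50.4 and 71.1 CPM and a ratio of -0.17 [-0.29 to -0.05], but 0.02 from uniquely placed reads, which were 45.7% of its reads. MRPL18, MRPL49 and MRPL35 had ratios between 0.05 and 0.09 with intervals that held 0.

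In the small subunit, 26 of 29 genes were above day 0 at day 3, 21 of them with an interval excluding 1, and the median log2 ratio was 0.17. MRPS33 (chromosome 7, 141002610 to 141015228), a mitochondria-specific protein, had 354, 492 and 474 reads, or 16.4, 23.0 and 18.1 CPM. Its day 3 level was 1.41-fold higher [1.22 to 1.62], a log2 ratio of 0.49 that was 0.50 with trends removed, and the day 3 library alone stood high. MRPS21, a bacterial-type protein, had 18.5, 25.1 and 24.2 CPM and a day 3 log2 ratio of 0.44 [0.25 to 0.63]. MRPS31 had 10.5, 13.3 and 12.9 CPM and a ratio of 0.34 [0.09 to 0.60]. For both genes the day 3 and day 5 libraries stood together above day 0. MRPS26 had 137.9, 173.8 and 146.3 CPM and a ratio of 0.33 [0.26 to 0.40]. MRPS17, with 15.4, 21.3 and 20.6 CPM and a ratio of 0.46 [0.26 to 0.67], is uncertain because 11.9% of its reads were uniquely placed. MRPS25 was the only lower gene, at -0.14 [-0.25 to -0.03], and its unique reads gave 0.04. MRPS5, MRPS35, MRPS27 and MRPS14 had ratios between -0.08 and 0.03 with intervals that held 0.

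**Figure D2:**
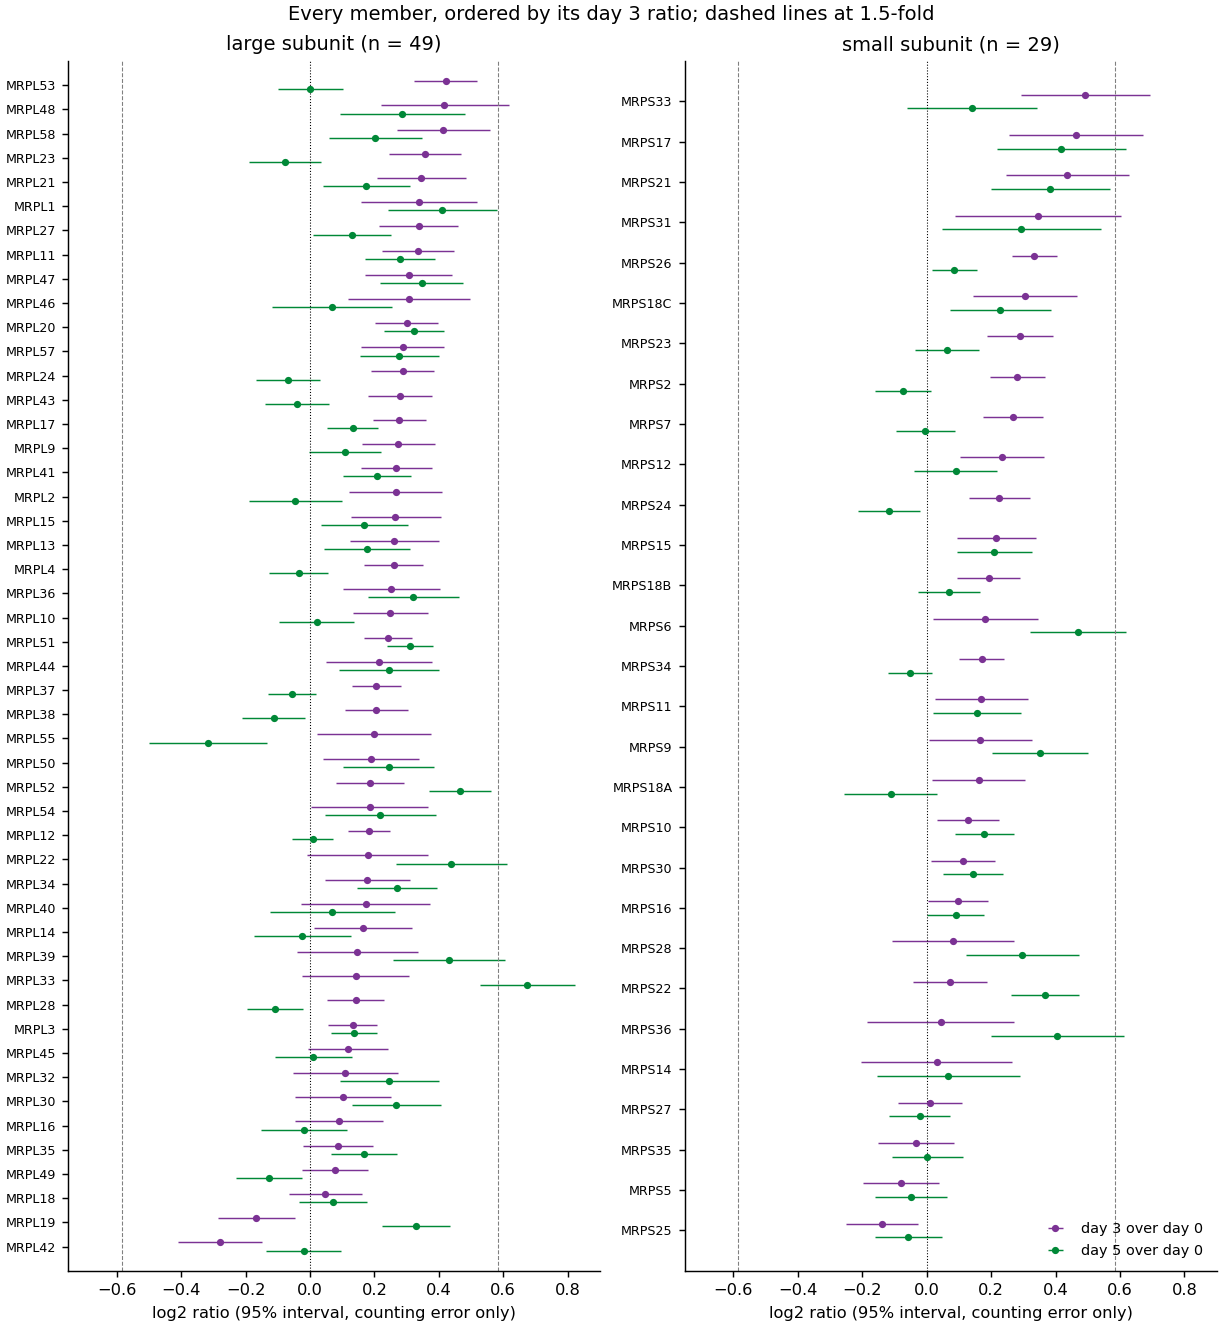
Log2 ratio to day 0 of every mitochondrial ribosomal protein gene at day 3 (purple) and day 5 (green), with 95% exact intervals for counting error only, in the 49 large and 29 small subunit genes ordered by the day 3 ratio; dashed lines mark 1.5-fold. Most day 3 points lie a little right of 0 while day 5 points spread to both sides, and only MRPL33 at day 5 passes 1.5-fold.

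At day 5 fewer genes of the set were above day 0 and the ratios were spread more widely. The ratios share the day 0 library with those of day 3, so the values of both times are not independent. Of the 78 genes, 57 were above day 0, against 51.1% of all genes compared, 43 were higher by the interval, against 22.8%, and 5 were lower, against 22.4%. The median log2 ratio was 0.14 (quartiles -0.02 and 0.28), against 0.01 over all genes. The summed reads were 1.08-fold higher [1.07 to 1.09], and those of all protein-coding genes compared were 0.99 of day 0. At a log2 ratio of at least 0.32, 14 of the 78 were higher, against 6.54% of all genes, and 0 were lower, against 5.17%. At 1.5-fold 1 of the 78 was higher, against 1.75% of all genes, and 0 were lower, against 1.28%. With length and GC trends removed the median was 0.09, and 55 of the 78 were above 0. The interval then lay above 0 for 30 of the 78, against 18.8% of all genes, and below 0 for 2, against 17.9%.

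The gene past 1.5-fold was MRPL33 (chromosome 2, 27771717 to 27988087), a small bacterial-type protein of the large subunit. Its 572, 624 and 1109 reads at day 0, day 3 and day 5 were 26.5, 29.2 and 42.3 CPM, so the day 5 library stood apart from both others. Its day 5 level was 1.60-fold higher [1.44 to 1.77], a log2 ratio of 0.67, and 97.7% of its reads were uniquely placed. Removal of the length and GC trends lowered the ratio to 0.49, under 1.5-fold. MRPL33 overlaps BABAM2 on the same strand and RBKS on the other, and nothing in the labels says that counting used strand. MRPL52 had 64.2, 73.0 and 88.7 CPM and a day 5 ratio of 0.47 [0.37 to 0.56]. Its level was highest at day 5, and its ratio was 0.51 with trends removed. MRPL22, at the exit of the peptide tunnel, had 20.5, 23.3 and 27.8 CPM and a ratio of 0.44 [0.27 to 0.61]. MRPL39 had 20.5, 22.8 and 27.7 CPM and a ratio of 0.43 [0.26 to 0.60], and MRPL1, of the stalk beside the tRNA exit site, had 21.4, 27.0 and 28.4 CPM and a ratio of 0.41 [0.24 to 0.58]. With trends removed the last 3 came down to 0.32, 0.22 and 0.20.

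In the small subunit, 21 of 29 genes were above day 0 at day 5, 15 of them by the interval, with a median of 0.09, while in the large subunit these were 36 of 49 and 28, with a median of 0.17. MRPS22, a mitochondria-specific protein, had 56.6, 59.5 and 73.0 CPM and a day 5 ratio of 0.37 [0.26 to 0.47]. MRPS21 kept a ratio of 0.38 [0.20 to 0.57] and MRPS17 of 0.42 [0.22 to 0.62]. MRPS6, a bacterial-type protein, had 27.4, 31.1 and 37.9 CPM with an all-read ratio of 0.47 [0.32 to 0.62], whereas the 37.9% of reads that were uniquely placed gave 0.03 [-0.21 to 0.27]. Its all-read value is therefore uncertain.

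The 5 genes lower at day 5 were MRPL55, MRPL49, MRPS24, MRPL38 and MRPL28. MRPL55 (chromosome 1, 228106679 to 228109312), a bacterial-type protein, had 497, 564 and 485 reads, or 23.0, 26.4 and 18.5 CPM. Its day 5 level was 0.803 of day 0 [0.707 to 0.912], a log2 ratio of -0.32, and it was -0.24 with trends removed. Day 3 was its highest library and day 5 its lowest. The others had ratios between -0.13 and -0.11, with upper interval bounds of -0.02. With trends removed all 4 of these intervals held 0, with ratios of -0.02 in MRPL28, -0.01 in MRPL38, -0.08 in MRPL49 and -0.05 in MRPS24. From unique reads MRPL38 had 0.10 [-0.07 to 0.27] and MRPL49 had -0.06 [-0.24 to 0.13]. The remaining genes named lowest at day 5 had intervals that held 0: MRPL23 at -0.08, MRPS18A at -0.11, MRPS2 at -0.07, MRPS25 at -0.06 and MRPS34 at -0.05.

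Between day 5 and day 3 the middle gene of either subunit lay slightly below its day 3 level, a direction that depended on the scaling. With library totals the median log2 ratio was -0.02 in the large and 0.04 in the small subunit, and with the authors' TPM both were above 0, at 0.03 and 0.08. The median of all genes compared moved too, to 0.07 with library totals and 0.09 with TPM, and lay above both subunits under each. With normalised reads, of the 78 genes, 31 were above and 47 below their day 3 level, against 50% of all genes each way, and the median log2 ratio was -0.05, against 0.00 over all genes. By the interval 13 were higher, against 24% of all genes, and 30 were lower, against 26.1%. At a log2 ratio of at least 0.32 either way, 3 were higher, against 8.99% of all genes, and 7 lower, against 6.94%. None reached 1.5-fold, against 2.28% of all genes higher and 0.969% lower. MRPL33, at 0.53 [0.39 to 0.68], and MRPL19, at 0.50 [0.39 to 0.61], were the highest, and MRPL55, at -0.52 [-0.69 to -0.34], and MRPL23, at -0.43 [-0.54 to -0.33], the lowest. In the small subunit MRPS36 was highest at 0.36 [0.16 to 0.57], and MRPS2 at -0.36 [-0.44 to -0.27] and MRPS33 at -0.35 [-0.54 to -0.17] were lowest. By normalised level, 3 genes were highest in the day 0 library, against 29.6% of all genes compared, 47 in the day 3 library, against 36.1%, and 28 in the day 5 library, against 34.3%. Both intervals excluded 1 upwards for 33 of the 78, against 10.4% of all genes compared, and for 0 of the 78 did both do so downwards, against 8.73%. The intervals lay on opposite sides of day 0 for 5 of the 78, against 6.23% of all genes.

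The large subunit lay a little above the small one at both times, by less than the spread within either. The large minus small difference of the median log2 ratios was 0.04 at day 3 and 0.08 at day 5, and -0.07 for day 5 over day 3. Medians do not add up across comparisons. For day 5 over day 3 the summed reads gave a log2 ratio of -0.09 in each subunit, near the -0.08 of all protein-coding genes compared. The medians with length and GC trends removed were -0.03 in the large and -0.02 in the small subunit. At day 3 large subunit ratios ran from -0.28 to 0.42 and small subunit ratios from -0.14 to 0.49. At day 5 they ran from -0.32 to 0.67 and from -0.12 to 0.47, so the subunits overlapped almost throughout. Removal of length and GC trends narrowed the differences to 0.03 at day 3 and 0.02 at day 5. Names do not match structure for every gene: the proteins of MRPS30 and MRPS18A sit in the large subunit, and that of MRPS36 belongs to the 2-oxoglutarate dehydrogenase complex. Regrouped by structure, the medians were 0.21 for 51 large and 0.19 for 26 small subunit genes at day 3, and 0.14 and 0.09 at day 5. MRPS30 had ratios of 0.11 [0.01 to 0.21] at day 3 and 0.14 [0.05 to 0.24] at day 5, and MRPS36 had 0.04 [-0.18 to 0.27] and 0.40 [0.20 to 0.61].

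**Figure D3:**
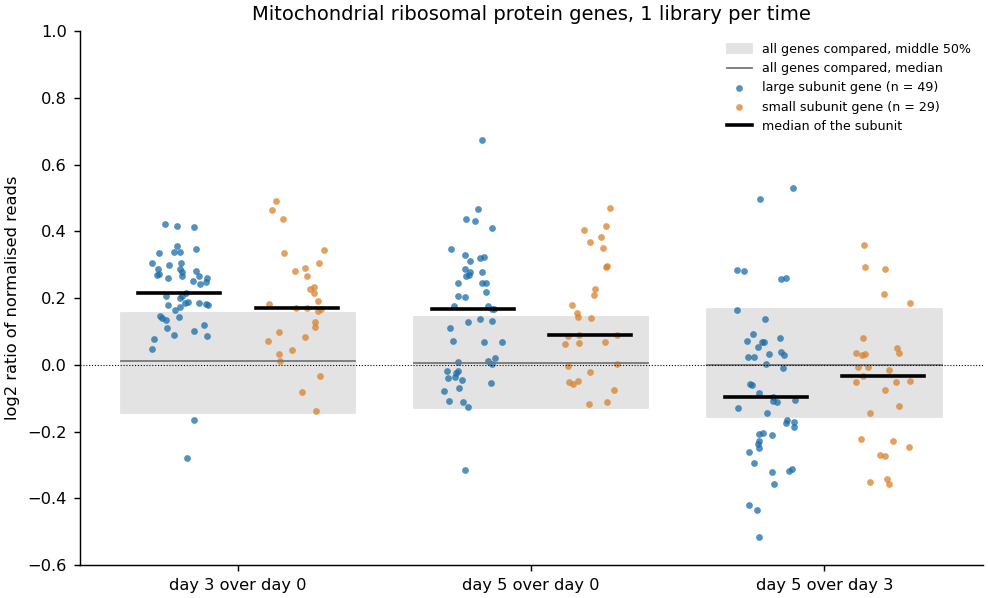
Log2 ratios of normalised reads for each large subunit gene (blue, n = 49) and small subunit gene (orange, n = 29) in the 3 comparisons, with black bars at the subunit medians and grey bands for the middle 50% of the 12593 genes compared. The medians of 0.21 and 0.17 at day 3 lie just above the grey band, that of 0.17 for the large subunit at day 5 also does while 0.09 for the small subunit lies inside it, and the points of both subunits overlap.

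With all reads counted, proteins of bacterial type and those added in mitochondria had medians within 0.05 of each other except in the small subunit at day 5. In the large subunit the medians at day 3 were 0.25 for 30 bacterial-type and 0.21 for 21 mitochondria-specific genes, with 22 and 16 higher by the interval. At day 5 they were 0.15 and 0.14, with 18 and 11 higher. In the small subunit they were 0.20 for 16 and 0.18 for 10 genes at day 3, with 13 and 6 higher, and 0.17 and 0.07 at day 5, with 10 and 3 higher. From uniquely placed reads these day 5 medians were 0.0870 and 0.0825, so the difference depended on which reads were counted. Over all genes compared, 25.2% were higher by the interval at day 3 and 22.8% at day 5, and the 3 of 10 lie near the latter share. The paralogs MRPS18A, MRPS18B and MRPS18C, of which the first is in the large and the others in the small subunit, had day 3 intervals above 0. With trends removed their day 3 ratios were -0.03, 0.04 and 0.31 in that order. MRPS18C, the nearest to the bacterial protein, had ratios of 0.30 [0.14 to 0.47] and 0.23 [0.07 to 0.39] at day 3 and day 5, MRPS18B had 0.19 [0.09 to 0.29] and 0.07 [-0.03 to 0.17], and MRPS18A had 0.16 [0.02 to 0.31] and -0.11 [-0.26 to 0.03].

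Base composition moved with the ratios. The set has a middle exon length of 2502 bases, against 4914 over all genes compared. Its middle transcript GC content is 50.5%, from 35.0% in MRPL50 to 72.0% in MRPL41, against a middle of 49.4% over all genes. Across the 78 genes the rank correlation of the ratio with GC content was 0.26 at day 3, -0.53 at day 5 and -0.65 for day 5 over day 3. Over all genes it was 0.16, -0.42 and -0.52. With exon length the rank correlation at day 3 was -0.13 over the 78 genes and -0.37 over all genes. Split at the middle GC content of the set, the 39 GC-rich genes had median ratios of 0.25 at day 3, where 39 of 39 were above day 0, and 0.02 at day 5, where 22 were. The 39 GC-poor genes had 0.15 at day 3, with 34 above, and 0.24 at day 5, with 35 above. MRPL33, highest at day 5, has 42.0% GC, and MRPL55, lowest at day 5, has 62.7%. As descriptions over genes of the same libraries these values carry no test, and the part of composition in the ratios was not tested beyond the removal of trends above.

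**Figure D4:**
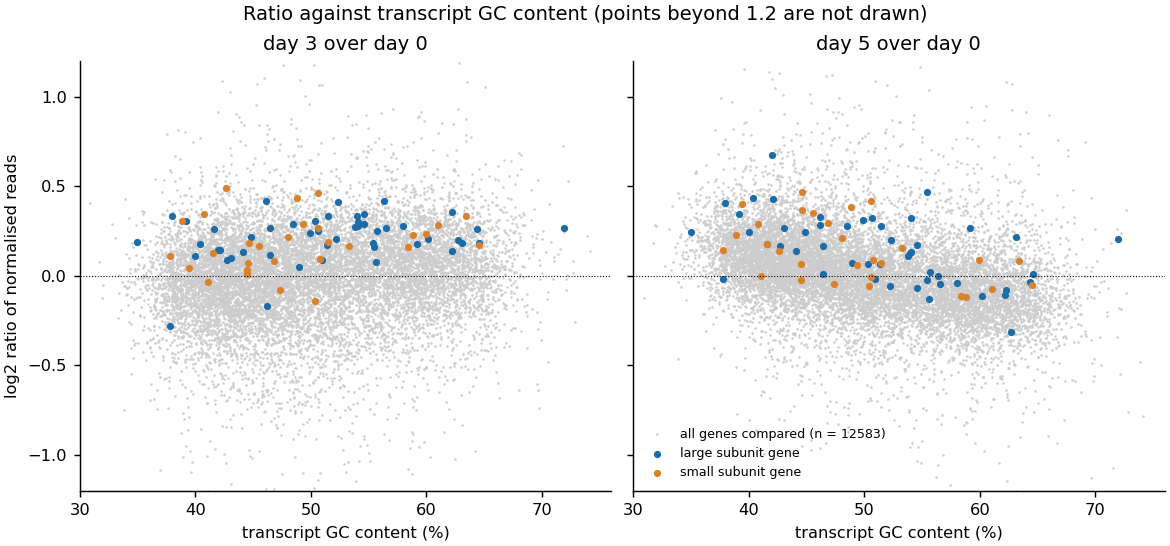
Log2 ratio to day 0 against transcript GC content in percent, for day 3 on the left and day 5 on the right, with large subunit genes in blue, small subunit genes in orange and all genes compared in grey. At day 5 both the grey cloud and the coloured points slope downwards with GC content, with rank correlations of -0.42 over all genes and -0.53 over the 78.

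Many of these genes have a named pseudogene or overlap another gene, which may bear on how their reads could be placed. A named pseudogene exists for 34 of the 78, and 22 (11 large and 11 small) had under 90% uniquely placed reads. Pseudogenes were found by symbol alone, without comparing sequences, and were not counted for other genes. The 2 traits did not always go together: MRPS21, with 8 named pseudogenes, had 100% unique reads, and MRPL12, with 0, had 22.7%. For the 56 others the medians were 0.21 at day 3 and 0.16 at day 5, with 41 and 33 higher by the interval, against 25.2% and 22.8% of all genes compared. Among the 22, unique reads changed the sign of the day 3 ratio in MRPL19, MRPL49 and MRPS25. They changed that of the day 5 ratio in MRPL4, MRPL12, MRPL38, MRPL40, MRPS2 and MRPS16. At day 5 intervals from all reads and from unique reads did not overlap for MRPS6 and for MRPL12. For MRPL12 the day 5 ratio was 0.01 [-0.05 to 0.07] when all reads were counted and -0.48 [-0.61 to -0.34] when only the 22.7% that were unique were, so its direction depends on which reads are counted. It overlaps the protein-coding model AC139530.2 on the same strand. MRPL30, with 18.3% unique reads, had 0.27 [0.13 to 0.41] and 0.58 [0.25 to 0.92]. MRPL49 (chromosome 11, 65122183 to 65127371) overlaps, on the opposite strand, FAU and SYVN1, the gene targeted by the hairpin. Its ratios were 0.08 [-0.03 to 0.18] at day 3 and -0.13 [-0.23 to -0.02] at day 5, with 28.7% of reads unique, against 99.6% for SYVN1.

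**Figure D5:**
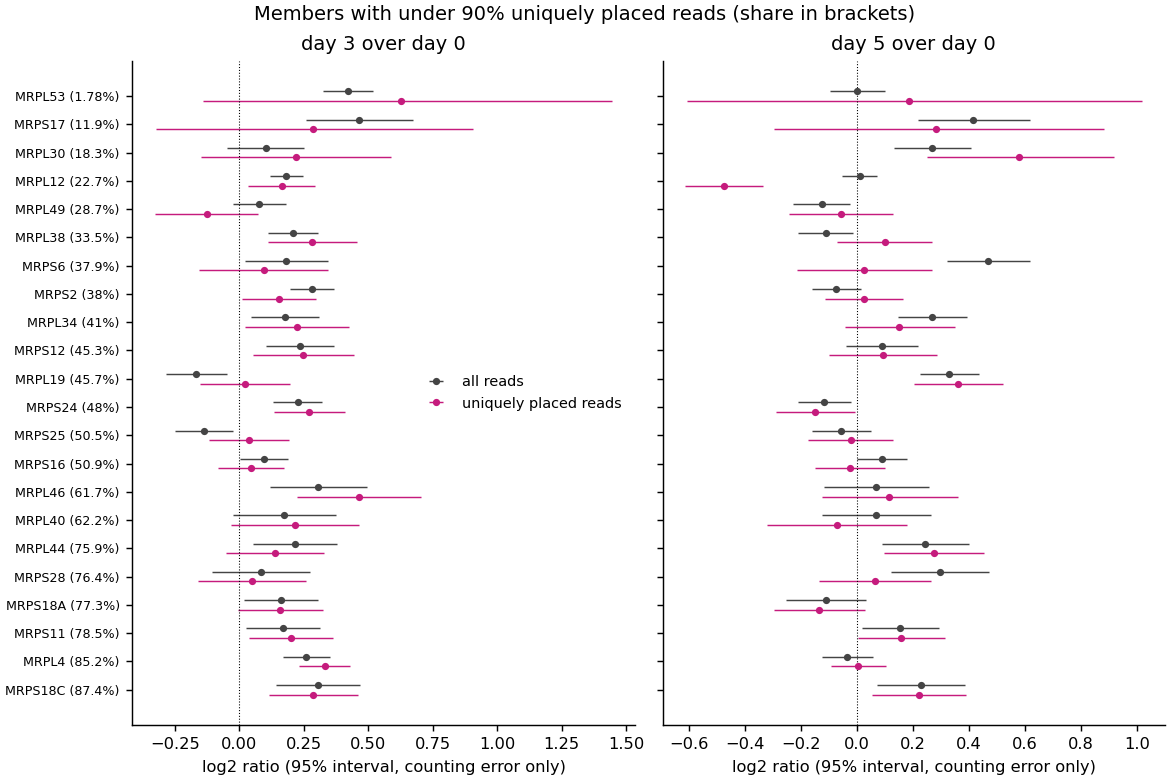
Log2 ratio to day 0 from all reads (grey) and from uniquely placed reads (pink) for the 22 mitochondrial ribosomal protein genes with under 90% uniquely placed reads, at day 3 on the left and day 5 on the right, with 95% exact intervals for counting error only and the unique share in brackets. The pairs lie close for most genes at day 3, and at day 5 MRPL12 and MRPS6 have intervals that do not overlap.

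In the genome the 78 genes are spread over 21 chromosomes. A protein-coding gene starts within 1 kb on the other strand, pointing away, for 17 of them (21.8%), against 10.1% of 11578 protein-coding genes compared, and 38 (48.7%) overlap a protein-coding gene, against 36.8%. MRPL46 and MRPS11 are themselves such a pair on chromosome 15, from 88459476 to 88467419 on the minus strand and from 88467453 to 88480773 on the plus strand. MRPL46 had ratios of 0.31 [0.12 to 0.50] at day 3 and 0.07 [-0.12 to 0.26] at day 5, and MRPS11 had 0.17 [0.03 to 0.31] and 0.15 [0.02 to 0.29].

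Spliced and intronic reads of the set had ratios on opposite sides of 1 at day 3. Summed over the 78 genes, reads across exon junctions were 1.18-fold higher [1.17 to 1.19] at day 3, while intronic reads were 0.908 of day 0 [0.865 to 0.953]. At day 5 junction reads were 1.04-fold [1.03 to 1.05] and intronic reads 1.06-fold [1.02 to 1.11] of day 0. The protein-coding genes compared had junction reads of 1.07-fold and intronic reads of 0.824 at day 3, and 0.946 and 0.975 at day 5. The intronic share of the reads of the set was 3.86% at day 0, 3.05% at day 3 and 3.81% at day 5, and over whole libraries it was 6.01%, 5.59% and 6.68%.

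Genes that build or serve the same ribosome were listed beside the set. Counts called by the interval in these lists stand beside 25.2% of all genes higher and 20.8% lower at day 3, and 22.8% higher and 22.4% lower at day 5. The 5 subunits under other names had a median log2 ratio of 0.30 at day 3 and 0.20 at day 5, with 4 and 3 higher by the interval and 0 lower. GADD45GIP1 and AURKAIP1, mitochondria-specific subunits, had 0.33 [0.24 to 0.41] and 0.32 [0.24 to 0.40] at day 3. CHCHD1, another such subunit, had 603, 736 and 1063 reads and a day 5 ratio of 0.54 [0.39 to 0.68]. DAP3, a GTP-binding subunit, had 0.11 [0.01 to 0.22] at day 3, and PTCD3, a pentatricopeptide repeat protein, had -0.03 [-0.11 to 0.06].

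Assembly factors had medians below those of the ribosomal proteins. Of 26, 8 were higher and 0 lower at day 3, and 7 were higher and 6 lower at day 5, with medians of 0.07 and -0.01, and these counts were near the shares of all genes except for the lower genes at day 3. MALSU1, which keeps immature large subunits from joining, had 0.28 [0.14 to 0.42] at day 3 and 0.22 [0.09 to 0.36] at day 5, whereas RBFA, a maturation factor of the small subunit, had -0.26 [-0.49 to -0.03] at day 5. Of 17 translation factors and RNA-binding partners, 9 were higher and 1 lower at day 3 and 5 higher and 0 lower at day 5, with medians of 0.14 and 0.10. TUFM, the mitochondrial elongation factor Tu, had 0.21 [0.16 to 0.25] at day 3 and -0.03 [-0.08 to 0.01] at day 5. SLIRP, which stabilises mitochondrial messenger RNAs with LRPPRC, had 863, 995 and 1642 reads and a day 5 ratio of 0.65 [0.53 to 0.77].

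Of 14 genes for transcription and upkeep of mitochondrial DNA and RNA, 4 were higher and 0 lower at day 3 and 7 higher and 3 lower at day 5, with medians of 0.08 and 0.10; the higher count at day 3 and the lower count at day 5 were near the shares of all genes. TFB2M, the mitochondrial transcription factor, had 621, 725 and 1072 reads and a day 5 ratio of 0.51 [0.36 to 0.65], and POLRMT, the mitochondrial RNA polymerase, had -0.22 [-0.30 to -0.13]. Of 9 regulators, 3 were higher and 0 lower at day 3, with a median of -0.05, and 3 were higher and 1 lower at day 5, with a median of 0.07. MYC had 1650, 2040 and 2584 reads and ratios of 0.32 [0.23 to 0.42] and 0.37 [0.28 to 0.46], while NRF1 had -0.06 [-0.22 to 0.11] and -0.08 [-0.24 to 0.09]. PPARGC1A, on 42, 68 and 74 reads, had 0.71 [0.14 to 1.30] at day 3. Of 10 mitochondrial chaperones and proteases, 8 were higher and 0 lower at day 3 and 5 higher and 3 lower at day 5, with medians of 0.19 and 0.04. HSPE1, the co-chaperonin of the matrix, had 2102, 2479 and 4006 reads and a day 5 ratio of 0.65 [0.57 to 0.73].

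The protein-coding genes of mitochondrial DNA, whose messenger RNAs this ribosome translates, had a median below 0 at day 3. Of these 13 genes, 3 were higher and 9 lower at day 3, with a median log2 ratio of -0.17, and 6 were higher and 5 lower at day 5, with a median of 0.03. The shares over all genes were those given above, 25.2% higher and 20.8% lower at day 3 and 22.8% and 22.4% at day 5. With trends removed the medians were -0.27 at day 3 and -0.20 at day 5, so the direction at day 5 depended on the trends. MT-CO1, a cytochrome c oxidase subunit, had 45012, 36358 and 49196 reads and ratios of -0.29 [-0.31 to -0.27] and -0.15 [-0.17 to -0.13]. MT-ATP8, an ATP synthase subunit annotated with 207 bases, had 898, 768 and 2433 reads and ratios of -0.21 [-0.35 to -0.07] and 1.16 [1.05 to 1.27]. With trends removed its day 5 ratio was 0.86. MT-ATP6, another ATP synthase subunit, had a day 5 ratio of 0.21 [0.17 to 0.25]. Proteins of the cytosolic ribosome, by contrast, gave values above those of the mitochondrial set at day 3. Of their 77 genes, 77 were higher by the interval at day 3 and 56 at day 5, with 0 and 13 lower and medians of 0.30 and 0.15. With trends removed their day 3 median was 0.22, against 0.09 for the 78 mitochondrial genes.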

How the data were processed

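RNA was sequenced from 3 cultures, 1 per time, so each group held 1 library. Per the labels' protocols, libraries came from total RNA with a SMARTer mRNA kit. The deposited tables give, per the file headers, read counts per gene (total, unique, exon, exon junction and intron) and the authors' TPM. Which aligner and counter made them is not given in the sources used here. In the submitters' processing notes the build is mm10, of mouse, but the 58243 identifiers are human. GENCODE 29 holds 57980 of them, 97.6% with identical coordinates, so coordinates are GRCh38. A further table's 3 sample columns were not used.

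Deposited total counts were scaled by TMM (factors 1.01, 0.968 and 1.02; edgeR 4.0.16, R 4.3.3), with a prior count of 0.5. Intervals are exact conditional (Clopper-Pearson) intervals, and no molecular identifiers are mentioned, so they cover counting error only. Genes needed a mean of 50 reads. Of the reads, 89.2%, 88.6% and 87.6% were uniquely placed at day 0, day 3 and day 5. GC content was the middle value over GENCODE 29 transcripts, and trends were removed by lowess (span 0.3, 3 rounds). Further tools were pandas 2.3.3, numpy 2.4.6, statsmodels 0.14.6, scipy 1.17.1 and matplotlib 3.10.9 in Python 3.11.15, and the steps were tested on simulated data. No count model was fitted because no replicates exist.

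Members, lists and alternatives were chosen with earlier results of these data known. Genes named were the 5 highest and 5 lowest ratios per subunit at day 3 and day 5, the top and bottom 3 by day 5 over day 3 and by mean TPM, genes under 90% unique reads, MRPL12, MRPL18, MRPS18A to MRPS18C, MRPS30 and MRPS36, and the extremes of each other list; not all are printed. Alternatives were library totals, DESeq2 1.42.0 size factors, TMM without mitochondrial and the 20 most abundant genes, the authors' TPM plus 0.5, unique or exon reads, a prior of 5, minimum means of 10, 200 or none, genes with 90% unique reads, protein-coding genes only, trend removal, subunits by structure, and a log2 ratio of 0.32 in place of 1.5-fold.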

Additional observations from a re-analysis of the deposited data

Results flagged for a closer look

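In 5 genes the day 3 and day 5 log2 ratios lay on opposite sides of day 0 with both intervals excluding 1, as did 6.23% of all genes compared. Both ratios share the day 0 library, with 1 library per time the difference between the times was not tested, and the values below are log2 ratios of day 5 over day 3. MRPL19 had 0.50, after -0.17 at day 3 and with 0.33 at day 5. MRPL55 had -0.52, with 0.20 at day 3 and -0.32 at day 5. MRPS24 had -0.34, with 0.23 and -0.12, MRPL38 had -0.32, with 0.21 and -0.11, and MRPL28 had -0.25, with 0.14 and -0.11. With length and GC trends removed, 4 of the 5 had at least 1 interval that held 0. MRPL28 then had 0.0026 at day 3 and -0.02 at day 5, MRPL55 had 0.03 and -0.24, MRPS24 had 0.09 and -0.05, and MRPL38 had 0.12 and -0.01, while MRPL19 had -0.18 and 0.27 with both intervals excluding 0. All reads of MRPL28 and MRPL55 were uniquely placed, but only 45.7% of those of MRPL19, 33.5% of those of MRPL38 and 48.0% of those of MRPS24. From unique reads the day 3 ratio of MRPL19 was 0.02 and the day 5 ratio of MRPL38 was 0.10, so these no longer lay on opposite sides.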

How the results depend on the processing

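No paired analysis was possible because each time had 1 library, and leaving out a replicate was not possible for the same reason. Of the subunit-level values under 15 alternatives, 381 stayed within the spread or within 1.5 times the count and 24 did not. Part of the 381 could not have moved, so that number does not measure robustness. Every gene of the set passed each alternative minimum mean, with the lowest mean at 283 reads in MRPS31. Those settings therefore left the subunit values as they were. A log2 ratio of 0.32 in place of 1.5-fold could change only the counts past the fold. With library totals the large subunit median was 0.15 at day 3, and for day 5 over day 3 the small subunit median was 0.0425, with 18 of its genes above and 1 large subunit gene at least 1.5-fold higher. With the authors' TPM the large and small medians were 0.11 and 0.061 at day 3 and 0.0262 and 0.0822 for day 5 over day 3, with 19 small subunit genes above and 1 large subunit gene past 1.5-fold. These scalings moved the median of all genes to -0.0569 and -0.0823 at day 3 and to 0.0749 and 0.0880 for day 5 over day 3, and the sign of the day 5 over day 3 medians depends on them. Exon reads put 1 large subunit gene 1.5-fold higher and unique reads 1 lower for day 5 over day 3. With 18 small subunit genes of 90% unique reads, 16 were above day 0 at day 3. With trends removed the medians were 0.11 and 0.0831 at day 3, and 0 large subunit genes passed 1.5-fold at day 5. At a log2 ratio of 0.32, 8 large and 5 small subunit genes were higher at day 3, 8 and 6 at day 5, and for day 5 over day 3 2 and 1 were higher and 4 and 3 lower. Among the genes chosen by the naming rule whose interval excluded 1 in the comparison at hand, the sign turned with TPM at day 3 for MRPS16 (-0.0267) and MRPS30 (-0.0229). With unique reads it turned for MRPL19 (0.0215) and MRPS25 (0.0372) at day 3, MRPL38 (0.10) and MRPS16 (-0.0262) at day 5, and MRPL49 (0.0696) and MRPS6 (-0.0685) for day 5 over day 3. With trends removed it turned for MRPL34 (-0.0109), MRPS16 (-0.0033) and MRPS18A (-0.0265) at day 3, MRPS30 (-0.0015) at day 5, and MRPL42 (-0.0456) and MRPS12 (0.0798) for day 5 over day 3. The cause was not tested. The large minus small difference kept its sign, between 0.02 and 0.08 at both times.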
